A study of Mus musculus with 24 samples.

Results

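The genes described here are 36 mouse genes of the type I interferon response, taken by symbol from a list of names and matched to their Ensembl identifiers in the gene count table of sorted brain microglia. All 36 were found among the 49315 gene identifiers of the table, and all 36 were among the 17579 genes with enough counts to be tested. The measurements are RNA levels in 24 libraries, given as CPM, each gene's counts per M counts of its library (M stands for mega), with library sizes scaled by the trimmed mean of M values (TMM).

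The study sorted microglia (CD45 intermediate, CD11b positive) from adult mouse brain to ask what loss of miRNAs through deletion of Dicer1 does to their gene expression. Mice labelled Cx3cr1 Cre+ carry a tamoxifen-activated recombinase, creERT2, under control of the microglial and monocyte gene Cx3cr1, and mice labelled Cx3cr1 Cre- serve as the wild type. Every group, Cre- included, had received tamoxifen, and there were 4 states with 3 Cre- and 3 Cre+ libraries each, described as biological replicates. The labels do not say which animal gave which library, nor whether Cre- mice carry the Dicer1 alleles that Cre deletes. Naive mice received tamoxifen and no cuprizone. Demyelination mice were fed cuprizone, a copper chelator that kills oligodendrocytes, for 6 weeks, with tamoxifen at 4 to 5 weeks, a time whose starting point the series text does not state. Both remyelination states had 6 weeks of cuprizone and then 6 weeks of normal diet. Tamoxifen came at 4 to 5 weeks in the first (labelled as the start) and in week 5 of cuprizone feeding in the second (labelled as the peak).

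Type I interferons are cytokines that almost every nucleated cell can make when it senses foreign or misplaced nucleic acid. They bind the receptor formed by IFNAR1 and IFNAR2, whose kinases JAK1 and TYK2 phosphorylate STAT proteins, among them STAT2; with IRF9, STAT2 takes part in the complex that binds interferon-stimulated response elements (ISRE) in promoters and switches on the genes described here. Microglia in demyelinating, ageing or infected brain include cells with a raised interferon signature.

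Totals were 19.48 to 44.53 M counts in the naive and 21.87 to 32.71 M in the demyelination libraries, but 8.87 to 12.56 M and 8.94 to 12.09 M in the remyelination libraries with tamoxifen at the start and at the peak. Remyelination libraries therefore differ from the others in depth as well as in state. Summed CPM of 10 microglial markers was 34700 to 72800 in all 24 libraries. Counts of Dicer1 over the whole gene do not show which exons are left and check nothing about the deletion: in naive microglia they were higher in Cre+ (21.81, 22.06 and 24.31 CPM) than in Cre- (18.55, 11.1 and 12.07 CPM). In demyelination the Dicer1 difference was -0.45 on the log2 scale (adjusted p = 0.0922), and the genotype effect on Dicer1 in demyelination was below that in naive by test (-1.17, adjusted p = 0.00165). Cx3cr1 was at 227.1 CPM in naive Cre+ replicate 1 and at 104.3 and 89.62 CPM in demyelination Cre+ replicates 1 and 3, far below the 2312 to 4571 CPM of the other naive and demyelination Cre+ libraries. Genotype results in naive and demyelination are given with all libraries and then without these 3 low-Cx3cr1 libraries, a choice made after seeing the data.

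The promoters of 6 members are shown because their genotype effect differed between demyelination and naive with the smallest p among members with a promoter in the RefSeq table (GRCm38.p6). Each run is the 250 bases before the gene's start, 5′ to 3′ on the gene's strand. Capitals mark matches to the ISRE core, which is GAAA, any 2 bases and GAAA, on either strand. The runs are chr19:34640639-34640888 (plus strand) for Ifit1, chr19:34583279-34583528 (plus) for Ifit3, chr19:34607707-34607956 (plus) for Ifit3b, chr4:156200819-156201068 (minus) for Isg15, chr12:26456453-26456702 (minus) for Rsad2 and chr8:71537473-71537722 (minus) for Bst2.
Ifit1: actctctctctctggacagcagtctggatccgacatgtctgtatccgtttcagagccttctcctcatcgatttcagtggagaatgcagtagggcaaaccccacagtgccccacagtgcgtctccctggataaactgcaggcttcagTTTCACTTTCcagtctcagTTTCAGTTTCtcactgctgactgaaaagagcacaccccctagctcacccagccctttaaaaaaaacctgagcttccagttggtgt
Ifit3: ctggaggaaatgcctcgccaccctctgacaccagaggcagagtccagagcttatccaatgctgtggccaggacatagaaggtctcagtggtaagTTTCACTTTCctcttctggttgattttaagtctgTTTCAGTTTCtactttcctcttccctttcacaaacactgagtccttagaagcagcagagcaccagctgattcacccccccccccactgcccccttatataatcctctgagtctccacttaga
Ifit3b: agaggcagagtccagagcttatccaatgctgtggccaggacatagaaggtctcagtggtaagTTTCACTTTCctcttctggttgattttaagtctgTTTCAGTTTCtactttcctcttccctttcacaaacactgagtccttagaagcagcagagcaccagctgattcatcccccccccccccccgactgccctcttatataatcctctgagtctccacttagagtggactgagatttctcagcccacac
Isg15: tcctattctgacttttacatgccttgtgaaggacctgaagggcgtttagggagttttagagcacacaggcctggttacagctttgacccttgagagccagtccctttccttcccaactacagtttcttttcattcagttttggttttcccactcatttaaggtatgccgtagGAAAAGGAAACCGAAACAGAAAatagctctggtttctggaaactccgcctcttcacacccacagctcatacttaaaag
Rsad2: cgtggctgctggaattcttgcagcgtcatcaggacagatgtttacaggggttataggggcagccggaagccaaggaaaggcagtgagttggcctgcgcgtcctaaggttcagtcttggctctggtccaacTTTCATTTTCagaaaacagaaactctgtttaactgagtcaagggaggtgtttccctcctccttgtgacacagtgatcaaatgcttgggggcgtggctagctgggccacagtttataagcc
Bst2: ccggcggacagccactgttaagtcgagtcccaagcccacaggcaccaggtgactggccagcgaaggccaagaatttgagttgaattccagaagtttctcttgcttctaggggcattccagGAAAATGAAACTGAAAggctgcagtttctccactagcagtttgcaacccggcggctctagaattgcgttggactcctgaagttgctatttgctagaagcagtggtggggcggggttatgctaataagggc
All 6 hold at least 1 match. In Ifit1 the matches began 104 and 85 bases before the start, in Ifit3 156 and 122, and in its near-identical neighbour Ifit3b 188 and 154. Isg15 had 3 overlapping matches beginning 78, 72 and 66 bases before the start, Bst2 had 2 overlapping ones at 130 and 124, and Rsad2 had 1 at 120.

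Promoters were found for 26 of the 36 members, in windows of 300 bases from 250 before to 50 after the start. The ISRE core was present in 16 of these 26 genes (61.5%), against 1079 of 27025 genes with a promoter (3.99%). Members whose genotype effect differed between naive and demyelination held the ISRE core in 7 of 10 cases and the other members in 9 of 16. A match is a run of letters and not a measured binding site. Members without an entry are Oas2, Mx1, Mx2, Ifi27l2a, Usp18, Dhx58, Zbp1, Rtp4, Ifi204 and Parp14.

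Per kb of exon and averaged over all libraries, the most abundant members were Ifitm3 (159 CPM per kb), which blocks viral fusion at endosomes, Ifi27l2a (154) and Bst2 (131), the tetherin that holds budding virus at the membrane. The least abundant were Oas3 (0.421 CPM per kb), Ifi44 (1.43) and Cmpk2 (2.04). Oas3 is the member limited most by depth, with 1, 7 and 3 counts in the naive Cre- and 4, 14 and 4 counts in the naive Cre+ libraries. A summary score, the mean over the 36 members of log2 CPM centred on each gene's mean, describes the states and was not tested.

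**Figure D1:**
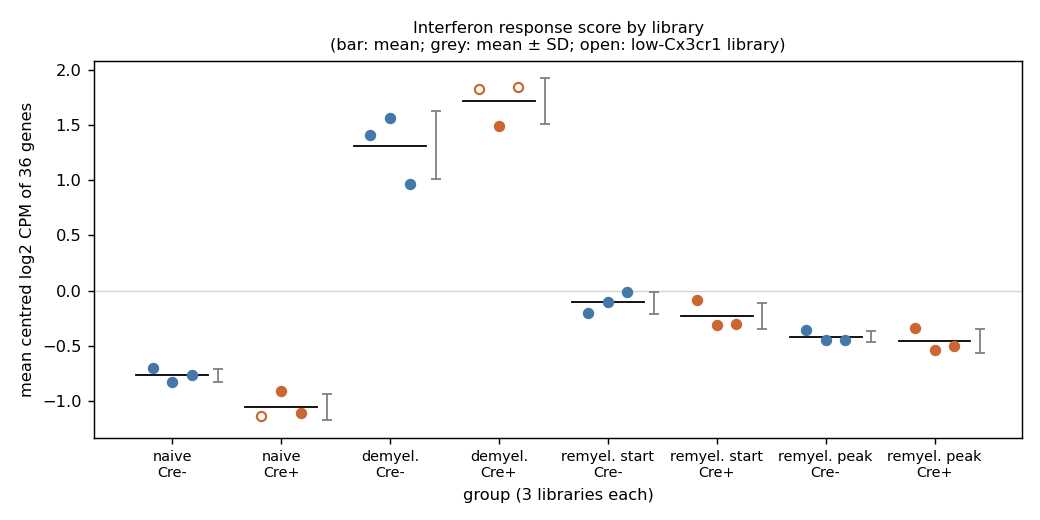
Score of the 36 interferon response genes (mean centred log2 CPM, vertical axis) in each of the 24 libraries by state and genotype; points are libraries, black bars are group means, grey bars the mean ± SD (n = 3), and open points are the 3 low-Cx3cr1 libraries. Demyelination libraries lie between 0.97 and 1.85 and naive libraries between -1.14 and -0.70.

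The score was -0.77 ± 0.06 (SD, n = 3) in naive Cre- and -1.06 ± 0.12 in naive Cre+ microglia, without overlap. In demyelination it was 1.41, 1.57 and 0.97 in Cre- and 1.83, 1.49 and 1.85 in Cre+, where replicate 2 of Cre+ fell inside the range of Cre-. With tamoxifen at the start it was -0.11 ± 0.10 in Cre- and -0.23 ± 0.12 in Cre+, and at the peak -0.42 ± 0.05 and -0.46 ± 0.11. The genotype order was thus Cre+ below Cre- in naive and Cre+ above Cre- in demyelination, by group means. The highest of the 8 group means was demyelination Cre+ for 27 members, demyelination Cre- for 6, naive Cre+ for 2 and Cre+ with tamoxifen at the peak for 1.

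Demyelination raised nearly all interferon response genes in both genotypes. In Cre- microglia 33 of 36 members rose from naive to demyelination (19.7% of all tested genes rose) and 1 fell (16.2%), with a median log2 change of 2.03. In Cre+ microglia 34 rose (26.3% of all genes) and none fell (25.9%), with a median of 2.99. The members that did not pass the test were Ddx58, which encodes the RNA sensor RIG-I (log2 0.10 in Cre- and -0.03 in Cre+), with Herc6 in Cre- (0.28) and Gbp3 in Cre+ (-0.25). Gbp3, a guanylate-binding GTPase, was the member that fell in Cre- (-0.58 ± 0.13 SE). All 34 calls in each genotype held when any single library was left out and under all other settings tried.

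Among the signal transducers Irf7 rose more than Stat2 and Irf9. Irf7, the transcription factor that amplifies interferon production, rose 7.26-fold in Cre- (naive 11.36, 9.99 and 14.22 CPM; demyelination 89.39, 109.5 and 59.45) and 11-fold in Cre+. Stat2 rose by 0.98 and 1.16 and Irf9 by 0.54 and 0.54 on the log2 scale in Cre- and Cre+. Ifi27l2a rose 28.3-fold in Cre- (9.167, 6.837 and 3.695 CPM to 199.3, 227.9 and 119.6) and 54.2-fold in Cre+ (3.042, 7.877 and 4.769 to 317.3, 286.9 and 276.5). The oligoadenylate synthetase family holds enzymes whose product activates RNase L, and relatives such as Oasl1 that lack this activity. Its log2 changes in Cre- and Cre+ were 3.52 and 4.20 for Oas1a, 3.91 and 4.19 for Oas2, 3.40 and 4.90 for Oasl1, and 3.93 and 3.92 for Oasl2. Oas3 went from 0.0549 to 0.338 CPM over the 6 naive libraries to 2.37 to 13.1 CPM in demyelination. Ifitm3 rose by 4.06 and 5.20, and the DNA-binding Ifi204 by 3.78 and 4.16.

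**Figure D2:**
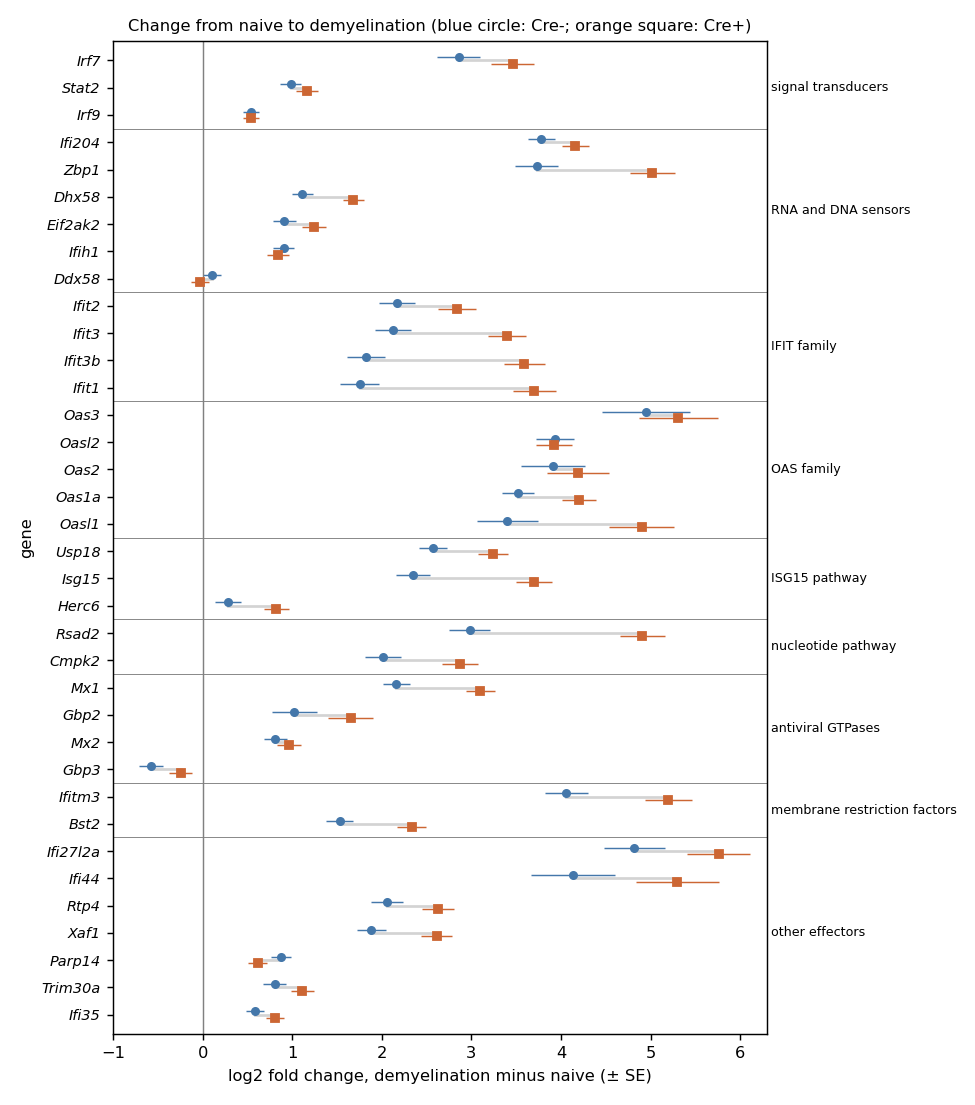
Log2 change from naive to demyelination (horizontal axis, with SE) of each of the 36 members, grouped by role; blue circles are Cre- and orange squares Cre+ (3 against 3 libraries each). In 34 members the change passed the test in Cre+, and the orange square lies right of the blue circle for 32.

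Over both genotypes, summed CPM of 8 monocyte markers was 24.3 to 83.3 in naive and 219 to 772 in demyelination libraries, that of 8 markers of border-associated macrophages 16.8 to 31.3 and 123 to 243, and that of the microglial markers 63800 to 72800 and 41600 to 46000. Sums were also apart for oligodendrocyte precursors (4.37 to 5.88 in naive and 39.8 to 111 in demyelination), T, NK and B cells (0.0936 to 0.823 and 4.6 to 6.79), endothelial cells (31.6 to 63.9 and 85.7 to 129) and plasmacytoid dendritic cells (210 to 224 and 243 to 280). Single genes held much of these rises. In Cre- means, Cspg4 of the precursor list went from 0.575 to 39.4 CPM and Flt1 of the endothelial list from 3.01 to 62.5. Klrb1c of the T, NK and B list went from 0.151 to 3.5. Cspg5 (3.74 to 3.12 in Cre-) and Pecam1 (33.3 to 8.5), of the precursor and endothelial lists, fell in both genotypes. Tcf4, most of the plasmacytoid sum, did not rise (203 to 201 in Cre-), while Cox6a2 did (2.87 to 34.4). Other sums were apart in Cre+ or Cre- alone. In Cre+ the neutrophil sum was 130 to 511 in naive and 1330 to 1680 in demyelination. The erythroid sum was 14 to 21.3 and 31.4 to 64.6, the neuronal sum 5.22 to 6.54 and 2.17 to 2.59. Mural sums were barely apart (at most 13.58 and at least 13.63). In Cre- astrocytes had 424 to 546 and 283 to 389, and oligodendrocytes 106 to 118 and 77.6 to 97. Gfap and Cldn11, of these lists, rose. The part of any of these cells in the rise of the interferon genes was not tested. In bulk RNA, fewer cells of a type and less RNA per cell cannot be told apart.

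After the return to normal diet, with tamoxifen at the start, the members were lower than in demyelination. In Cre- 30 of 36 fell (28.3% of all genes) and none rose (26.3%), with a median log2 difference of -1.53. In Cre+ 35 fell (30.8% of all genes) and Parp14, which encodes an ADP-ribosyltransferase, rose by 0.34 (32.5% of all genes rose), with a median of -2.23. Ifi27l2a differed by -3.06 in Cre- and -3.86 in Cre+, and Rsad2 by -2.28 and -3.25. Members not called in Cre- included Oas2 (-0.42), Oas3 (-0.51) and Parp14 (0.20). Summed marker CPM from demyelination to tamoxifen at the start went from 4.6 to 6.79 to 0.611 to 3.44 for T, NK and B cells, from 243 to 280 to 176 to 183 for plasmacytoid dendritic cells and from 123 to 243 to 299 to 518 for border-associated macrophages, over both genotypes. For monocytes it was 469 to 772 and then 141 to 235 in Cre+, with overlap in Cre- (219 to 353 and 175 to 466). Klrb1c held much of the T, NK and B fall (mean 3.5 to 0.169 CPM in Cre- and 5.26 to 0.156 in Cre+). Means of Cd3e, Cd3d and Cd3g rose in both genotypes (Cd3d 0.197 to 0.738 in Cre-), and those of Trbc2 and Nkg7 in Cre-. Ms4a7, of the border-associated list, fell in both (60.6 to 29.1 in Cre-). The monocyte fall in Cre+ was mostly in Fn1 (398 to 44) and Chil3 (153 to 77.6), while Ccr2 rose (16.2 to 45.6). Over both genotypes, sums were also apart for astrocytes (231 to 389 and then 406 to 733) and mural cells (9.32 to 17.3 and 25.2 to 70.8). So were those of oligodendrocytes (77.6 to 101 and 111 to 148) and microglia (41600 to 46000 and 34700 to 39200). Single markers such as Gfap (6.37 to 4.79 in Cre-) and Csf1r (8790 to 11600) went the other way. Neutrophil, precursor and neuronal sums were apart in Cre+ alone, and endothelial sums in Cre- alone. The part of any of these cells in these differences was not tested. The state and the lower depth of the remyelination libraries cannot be told apart in these differences.

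In naive microglia, Cre+ against Cre- gave lower levels of a set of effector genes. Of the 36 members, 12 were called lower in Cre+ (13.7% of all tested genes were) and 1 was called higher (14.7%), and the median log2 difference was -0.29 against -0.01 over all genes. By role, the lower members were 3 of 4 IFIT genes, 3 of 6 nucleic acid sensors, both nucleotide genes, 1 of 3 genes of the ISG15 pathway, 1 of 4 antiviral GTPases, 1 of 2 membrane factors and 1 of 7 others. None of the 3 signal transducers was called, with Irf7 at -0.35 ± 0.24, Stat2 at -0.28 ± 0.12 and Irf9 at -0.20 ± 0.09 (log2, SE). Levels of the genotypes did not overlap for 14 members lower (20.4% of all genes) and 5 higher (19.7%).

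Ifit1 encodes a protein that binds RNA whose cap lacks host methylation. It stood at 3.403, 5.485 and 7.456 CPM in naive Cre- and at 2.48, 2.102 and 2.231 CPM in naive Cre+. All 3 Cre+ libraries were below the lowest Cre- library, and the difference was -1.29 ± 0.23 (log2, SE, edgeR adjusted p = 0.00019). Mx1, a dynamin-like GTPase that blocks orthomyxoviruses, had 9.496, 10.1 and 10.13 CPM in Cre- and 3.416, 4.978 and 4.269 CPM in Cre+, again without overlap (-1.21 ± 0.16, adjusted p = 6.38e-06). Ifitm3 had 22.07, 19.98 and 14.95 CPM in Cre- and 5.522, 9.448 and 9.999 CPM in Cre+ (-1.17 ± 0.24, adjusted p = 0.00108), and its groups were also apart.

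Rsad2 encodes viperin, which turns CTP into a chain terminator of viral polymerases, and its neighbour on chromosome 12, Cmpk2, encodes a nucleotide kinase. Rsad2 had 5.16, 4.266 and 4.256 CPM in naive Cre- and 1.638, 3.093 and 1.885 CPM in Cre+ (-0.98 ± 0.25, adjusted p = 0.00527), with no overlap. Isg15, the ubiquitin-like modifier, had 5.873, 4.266 and 4.553 CPM in Cre- and 3.931, 2.489 and 2.423 CPM in Cre+ (-0.74 ± 0.20, adjusted p = 0.00714). The other members called lower were Ifit3b (-1.0), Zbp1 (-0.80, with overlapping groups), Cmpk2 (-0.72), Xaf1 (-0.62), Ifit3 (-0.58), Dhx58 (-0.57) and Ifi204 (-0.50). Dhx58 encodes the RNA helicase LGP2 and Zbp1 a sensor of Z-form nucleic acid. Oasl2 was the member called higher: it had 7.575, 6.837 and 8.644 CPM in Cre- and 11, 12.42 and 10.58 CPM in Cre+ (0.57 ± 0.20, adjusted p = 0.0397), a call that ended with DESeq2 size factors as scaling (0.53, adjusted p = 0.0553).

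Of the 13 calls in naive, 8 held without any single library and under every other setting, the one without low-Cx3cr1 libraries included: Ifit1, Ifit3b, Rsad2, Mx1, Ifitm3, Dhx58, Xaf1 and Ifi204. Summed CPM of astrocyte markers was 424 to 546 in naive Cre- and 284 to 330 in naive Cre+, with all 6 markers lower. Sums were also apart for T, NK and B cells (0.429 to 0.823 in Cre- and 0.0936 to 0.346 in Cre+) and neurons (2.87 to 4.28 and 5.22 to 6.54), and all 8 neutrophil markers had higher means in Cre+ with overlapping sums. The T, NK and B sums rest on few counts: in naive Cre+ replicate 1 a count was worth 0.0468 CPM and the sum was 0.0936 CPM. Means were lower in Cre+ for 5 of 8 T, NK and B cell markers. They were also lower for 3 of 5 neuronal markers, although the neuronal sum was higher. The part of these cells in the naive differences was not tested.

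**Figure D3:**
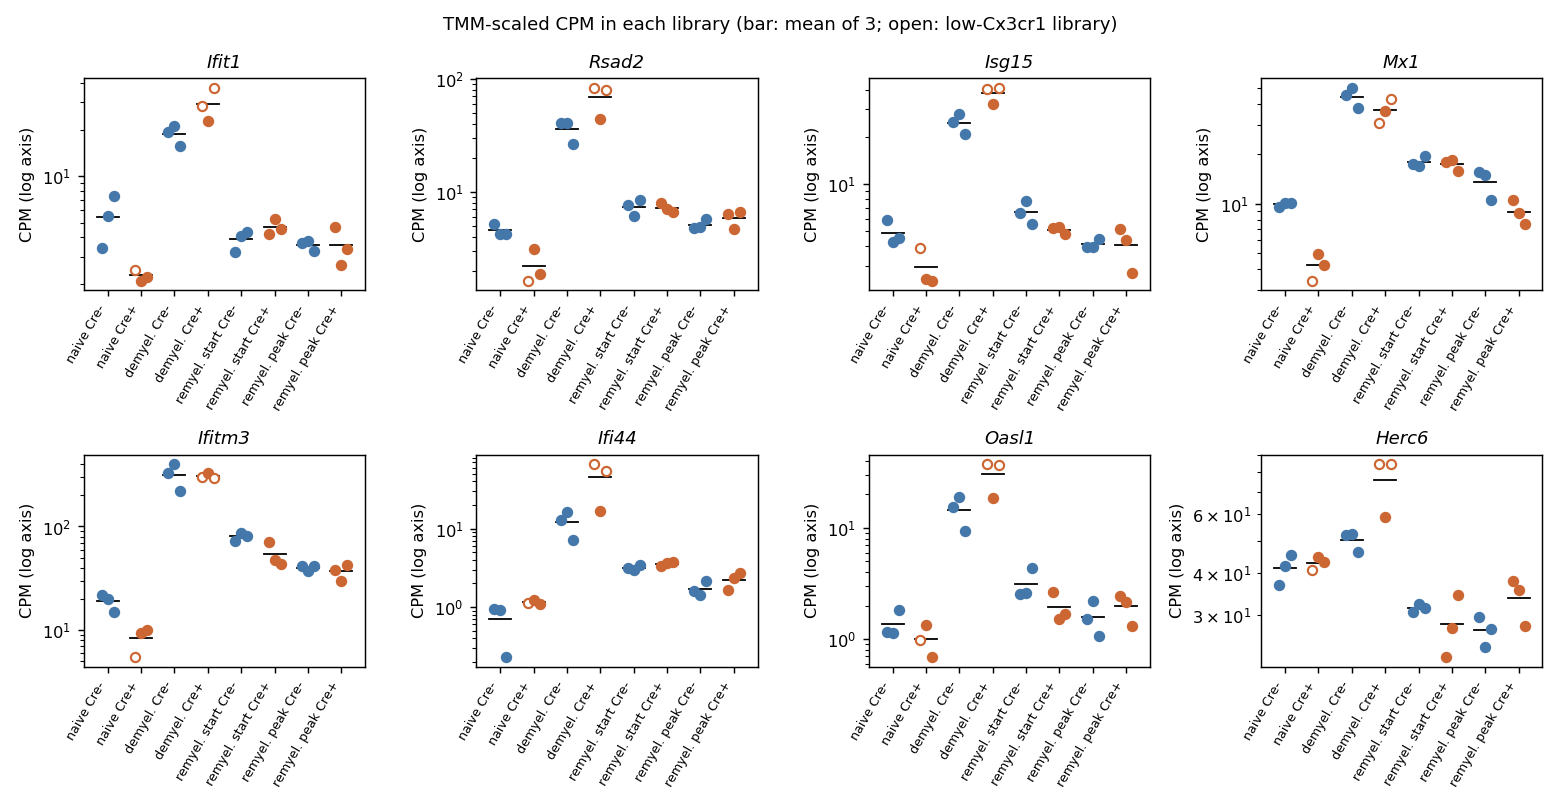
CPM on a log axis of 8 interferon response genes (Ifit1, Rsad2, Isg15, Mx1, Ifitm3, Ifi44, Oasl1 and Herc6) in all 24 libraries by state and genotype; each point is a library, bars are means of 3, and open points are the 3 low-Cx3cr1 libraries. In demyelination, Cre+ replicate 2 lies nearest to the Cre- libraries for Ifi44, at 16.98 CPM against 65.71 and 54.26 CPM.

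In demyelination the genotype difference ran the other way. Cre+ against Cre- gave 12 of 36 members called higher (5.69% of all genes) and none lower (3.48%), with a median log2 difference of 0.32. The 12 were all 4 IFIT genes, 2 of 5 genes of the OAS family, 2 of 3 of the ISG15 pathway, 1 of 2 nucleotide genes, 1 of 4 antiviral GTPases, 1 of 2 membrane factors and 1 of 7 others. No signal transducer and no nucleic acid sensor was called. Levels did not overlap for 11 members higher (16.4% of all genes) and 1 lower (15.4%).

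Ifi44, an interferon-induced gene, had the largest estimate. Its levels were 12.99, 16.28 and 7.142 CPM in Cre- and 65.71, 16.98 and 54.26 CPM in Cre+ demyelination microglia (1.92 ± 0.37, adjusted p = 0.00383). The groups did not overlap, but Cre+ replicate 2 exceeded the highest Cre- library by little. Rsad2 had 40.61, 40.42 and 26.34 CPM in Cre- and 82.41, 44.24 and 79.37 CPM in Cre+ (0.94 ± 0.21, adjusted p = 0.00615). Herc6, the ligase that attaches ISG15 in mice, had 52.07, 52.27 and 46.35 CPM in Cre- and 84.38, 58.67 and 84.39 CPM in Cre+ (0.59 ± 0.14, adjusted p = 0.00769). Its Cre+ and Cre- levels were apart, and replicate 2 was again the lowest Cre+ library.

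Ifit1 had 19.18, 21.15 and 15.61 CPM in Cre- and 28.59, 22.78 and 37.15 CPM in Cre+ (0.66 ± 0.21, adjusted p = 0.0437). Isg15 had 24.99, 28.07 and 21 CPM in Cre- and 40.37, 32.45 and 40.98 CPM in Cre+ (0.62 ± 0.18, adjusted p = 0.0264). In both genes the lowest Cre+ library was replicate 2, and it still exceeded every Cre- library. Oasl1, which in mice restrains translation of Irf7, had 15.35, 19.05 and 9.412 CPM in Cre- and 37.23, 18.44 and 36.55 CPM in Cre+ (1.08 ± 0.29, adjusted p = 0.0215), so that Cre+ replicate 2 fell inside the Cre- range. The groups also overlapped for Ifit3b (0.76), Ifit3 (0.70), Gbp2 (0.81) and Oas3 (1.27, adjusted p = 0.0186) and were apart for Ifit2 (0.63) and Bst2 (0.51).

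Most calls in demyelination were lost when a single library was left out. Ifi44 was the 1 of the 12 members still called whichever library was left out (adjusted p = 0.0326 without Cre+ replicate 1). The number of members called higher was 1 without Cre+ replicate 1, 15 without Cre+ replicate 2 and 3 without Cre+ replicate 3, and it was 5, 11 and 3 without Cre- replicates 1, 2 and 3. Without Cre+ replicate 1, Rsad2 had an adjusted p of 0.0576 and Herc6 of 0.0684. Cre+ replicates 1 and 3 were above all 3 Cre- libraries for 24 and 23 of the 36 members, and replicate 2 for 12. Within Cre-, replicate 3 was the lowest library for 35 members and replicate 2 the highest for 32.

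Cre+ replicates 1 and 3 are also the low-Cx3cr1 libraries of demyelination. Without the 3 low-Cx3cr1 libraries no member was called in demyelination, where the lone Cre+ library is then assumed to vary like the other groups. The median difference of the 36 members was 0.16, with 0.53 for Ifi44, 0.35 for Rsad2, 0.44 for Isg15, 0.33 for Ifit1, 0.27 for Herc6 and 0.00 for Gbp2. All 12 estimates were smaller than with all libraries.

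**Figure D4:**
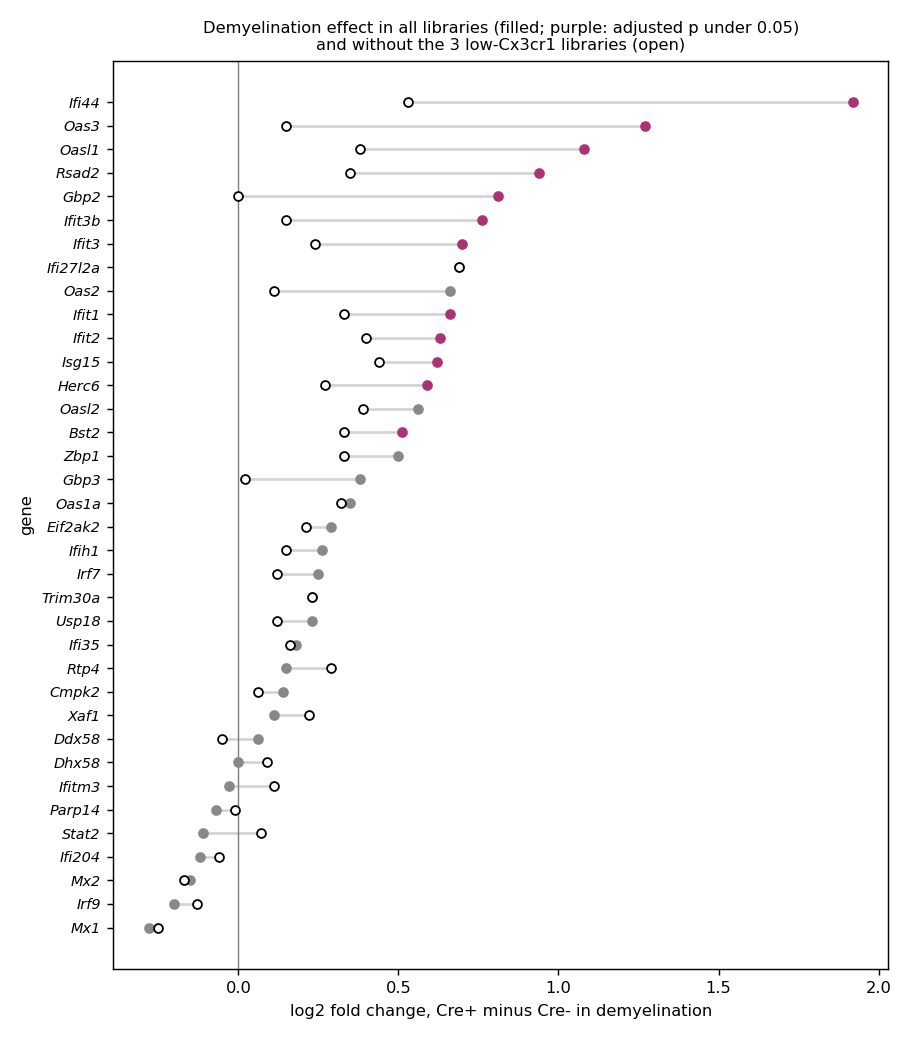
Log2 difference of Cre+ against Cre- in demyelination (horizontal axis) of the 36 members, with all libraries (filled points, purple where called) and without the 3 low-Cx3cr1 libraries (open points). The open points of the 12 called members lie nearer to 0 than the filled ones, with Ifi44 moving from 1.92 to 0.53.

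Markers of other cells moved with genotype in demyelination too. Summed CPM of 8 monocyte markers was 219 to 353 in Cre- and 469 to 772 in Cre+. Higher means in Cre+ were those of Fn1 (mean 125 against 398 CPM) and Chil3 (62.5 against 153), whereas 6 of the 8 had lower means in Cre+, among them the defining Ly6c2 (20.3 against 10.2) and Ccr2 (48.2 against 16.2). Neutrophil markers summed to 220 to 896 CPM (Cre-) and 1330 to 1680 CPM (Cre+), with 5 of 8 means higher. Markers of border-associated macrophages summed to 190 to 243 CPM (Cre-) and 123 to 145 CPM (Cre+), with all 8 means lower. Markers of plasmacytoid dendritic cells, professional interferon producers, summed to 243 to 273 CPM and 255 to 280 CPM with Klk1 at 0 in both genotypes. Summed CPM was also apart for T, NK and B cells (4.6 to 6.37 in Cre- and 6.53 to 6.79 in Cre+), oligodendrocyte precursors (39.8 to 51.2 and 67 to 111), endothelial cells (85.7 to 109 and 125 to 129) and neurons (2.65 to 3.4 and 2.17 to 2.59), and it overlapped for astrocytes, oligodendrocytes, mural and erythroid cells. Means were higher in Cre+ for 3 of 8 T, NK and B cell markers, with Klrb1c at 3.5 CPM (Cre-) and 5.26 CPM (Cre+). They were higher for 3 of 4 precursor markers, with Cspg4 at 39.4 and 87.2 CPM, and for 5 of 6 endothelial markers. Of 5 neuronal markers 3 were higher, although the neuronal sum was lower. The part of any of these cell types in the genotype differences was not tested.

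The difference between both genotype effects was tested directly. The effect of Cre+ against Cre- was more positive in demyelination than in naive for 14 of 36 members (7.97% of all genes) and more negative for none (7.78%), with a median of 0.61 and 32 of 36 estimates above 0. The largest were Ifit1 (1.95 ± 0.31, SE, adjusted p = 0.000275), Rsad2 (1.93 ± 0.33, adjusted p = 0.000637), Ifit3b (1.76 ± 0.30, adjusted p = 0.000547) and Oasl1 (1.5 ± 0.47, adjusted p = 0.0327). These were followed by Isg15 (1.36), Zbp1 (1.29), Ifit3 (1.28), Ifitm3 (1.14), Mx1 (0.93), Cmpk2 (0.86), Bst2 (0.80), Xaf1 (0.74), Usp18 (0.66) and Dhx58 (0.57). Usp18, which removes ISG15 and dampens the receptor, was called in neither state alone.

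From naive to demyelination Ifit1 rose by 1.75 in Cre- and 3.70 in Cre+ on the log2 scale, Rsad2 by 2.98 and 4.91, Isg15 by 2.35 and 3.70, Ifit3 by 2.12 and 3.40, and Ifit3b by 1.82 and 3.59. By group means their naive Cre+ levels started lower and their demyelination Cre+ levels ended higher, with overlap in demyelination for Ifit3 and Ifit3b. Without the low-Cx3cr1 libraries the lone Cre+ library gave smaller demyelination estimates: 0.33 for Ifit1, 0.35 for Rsad2, 0.44 for Isg15, 0.24 for Ifit3 and 0.15 for Ifit3b. With all libraries, these 5 members were called lower in naive and higher in demyelination, which is 13.9% of the 36 members against 0.58% (102 genes) of all tested genes. They are 41.7% of each list of 12 members, and the 102 genes are 4.25% of all genes called lower in naive and 10.2% of those called higher in demyelination. For Mx1, Ifitm3, Dhx58 and Xaf1 the larger rise in Cre+ came with a lower naive level and no call in demyelination: Mx1 had 45.27, 50.06 and 38.17 CPM in demyelination Cre- and 30.65, 36.22 and 43.19 CPM in Cre+. Oasl2 was above 0 in both states (0.57 and 0.56) and its effects differed by -0.01 ± 0.26, with a 95% interval from -0.56 to 0.54.

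The estimate was below 0 in naive and above 0 in demyelination for 20 members (22.4% of all genes), and 12 of these were called in the test of the difference (6.33% of all genes). Of the other members, 6 were below 0 in both states, 9 above 0 in both, and 1 above and then below. Without demyelination Cre- replicate 3 the number called was 9 in place of 14, and 9 calls (Ifit1, Ifit3, Ifit3b, Isg15, Rsad2, Mx1, Ifitm3, Bst2 and Zbp1) held whichever library was left out. Same-numbered naive and demyelination libraries of Cre+ varied together, and with that number as a block over these 6 libraries, a setting chosen after seeing the data, 12 calls were left (Oasl1 had an adjusted p of 0.051 and Usp18 of 0.0527). With the replicate number within each state as a block 9 were left, and those of Ifit3, Ifitm3, Oasl1, Usp18 and Cmpk2 were lost (adjusted p of 0.0503 to 0.0967). Without the low-Cx3cr1 libraries 5 calls were left, Ifit1 (1.71, adjusted p = 0.00712), Isg15 (1.45, adjusted p = 0.00546), Rsad2 (1.21), Ifit3b (1.15) and Mx1 (0.87), with a median of 0.46 over the members.

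**Figure D5:**
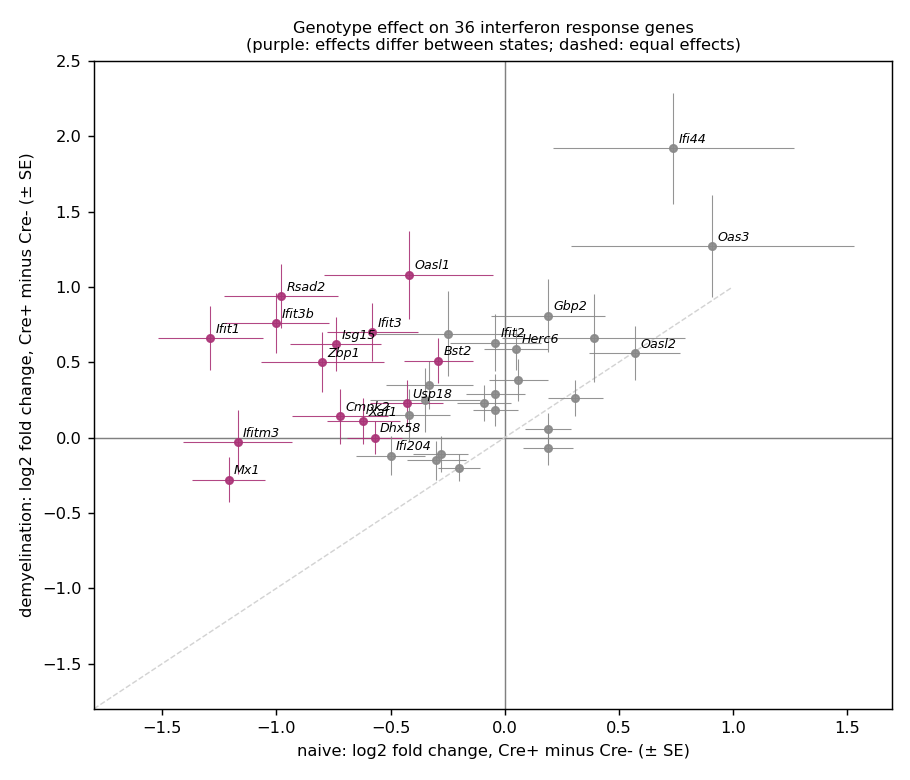
Log2 difference of Cre+ against Cre- in naive (horizontal axis) and in demyelination (vertical axis) for the 36 members, with SE; the dashed line marks equal effects, and purple points are the 14 members whose effects differed by test. Ifit1 and Rsad2 lie farthest above the line, at -1.29 and 0.66 and at -0.98 and 0.94.

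The IFIT genes form a cluster on chromosome 19 (34550694 to 34650009, GRCm38) in the order Ifit2, Ifit3, Ifit3b, Ifit1. Ifit2 differed from its neighbours in naive microglia, where it had 23.77, 22.31 and 36.79 CPM in Cre- and 23.17, 29.17 and 28 CPM in Cre+ (-0.04 ± 0.20) and overlapped. All 4 were called higher in demyelination. Ifit3 and Ifit3b are near-identical copies, so reads may have been shared between them. Exons of 11 members overlap those of another gene, 7 of them on the opposite strand (Oasl1, Irf7, Usp18, Dhx58, Ifi35, Eif2ak2 and Gbp2). The counting is not stated to use strand, so reads within the shared stretches cannot be told apart. The largest overlap was that of Herc6, 1269 exon bases on the same strand.

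Few members differed between genotypes in remyelination. With tamoxifen at the start, edgeR called none of 36 (6 genes, 0.0341%, were called over the whole table), 3 had an unadjusted p under 0.05, DESeq2 called none, and the median was -0.12. Ifit1 had 3.239, 4.089 and 4.362 CPM in Cre- and 4.2, 5.249 and 4.561 CPM in Cre+. Rsad2 had 7.557, 6.045 and 8.388 CPM in Cre- and 7.943, 7.086 and 6.641 CPM in Cre+. Both overlapped between genotypes. The effect was more negative with tamoxifen at the start than in demyelination for 5 members (2.94% of all genes) and more positive for none (0.796%): Oasl1 (-1.79 ± 0.48), Ifit2 (-1.09 ± 0.28), Ifit3 (-1.05 ± 0.28), Isg15 (-0.99 ± 0.28) and Herc6 (-0.76 ± 0.20), with adjusted p from 0.0361 to 0.0433. None of these 5 calls held in every leave-out. Without demyelination Cre+ replicate 2 there were 11, without each of the other 11 libraries of the comparison 0 to 4, and without the low-Cx3cr1 libraries 0.

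With tamoxifen at the peak, 3 members were called lower in Cre+ (4.02% of all genes) and none higher (6.99%), with a median of -0.01. They were Mx1 (15.43, 14.82 and 10.54 CPM in Cre-; 10.49, 8.773 and 7.523 CPM in Cre+; -0.60 ± 0.17, adjusted p = 0.0215), Ifi204 (-0.51 ± 0.15, adjusted p = 0.0273) and Dhx58 (-0.43 ± 0.12, adjusted p = 0.0254). The same 3 members were called lower in naive Cre+. None of the 3 calls held in every leave-out: 0 members were called without Cre- replicate 1 and without Cre+ replicates 2 and 3, 1 without Cre- replicates 2 and 3, and 4 without Cre+ replicate 1. Summed CPM at the peak was 176 to 289 in Cre- and 446 to 5180 in Cre+ for neutrophil markers (all 8 means higher) and 578 to 800 and 331 to 434 for astrocyte markers (all 6 lower). Monocyte sums were 77.8 to 94.3 and 98.3 to 674, and endothelial (58.4 to 93.8 and 28.6 to 55.2) and oligodendrocyte precursor sums (21.7 to 35.4 and 10.9 to 20.9) were also apart. Means in Cre+ were higher for 6 of 8 monocyte markers. They were lower for 3 of 4 precursor, all 6 endothelial and all 5 mural markers. The part of these cells in the 3 calls was not tested. Effects with tamoxifen at the peak and at the start differed by test for no member (2.87% and 0.893% of all genes called higher and lower), with 3 unadjusted p under 0.05 and none called by DESeq2.

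Upstream of the members, the interferon genes themselves were hardly detected. Of 21 ligand genes of types I, II and III none had enough counts to be tested: Ifnb1, the interferon-beta gene, had 80 counts over all 24 libraries, with at most 16 in one. Of the receptor genes Ifnar2 followed the naive pattern, at 338.3, 334.4 and 275.2 CPM in Cre- and 236.1, 245.6 and 227.8 CPM in Cre+ (-0.42 ± 0.09, adjusted p = 0.000937), without overlap. Its genotype effect in demyelination was 0.39 above that in naive (adjusted p = 0.0331), and it was lower at the peak (-0.32, adjusted p = 0.0201). Ifnar1 and the transcription factor gene Irf3 were called by genotype in no state. The genotype effect on Irf1 changed by -0.43 from naive to demyelination (adjusted p = 0.0237). The interferon-gamma receptor gene Ifngr2 was higher in Cre+ by 0.84 in naive, 0.61 in demyelination and 0.75 at the peak. The kinase genes Jak2 (1.19, edgeR adjusted p = 0.000836) and Tyk2 (0.31, adjusted p = 0.0342, groups overlapping) were also higher in naive Cre+. The naive effect on Ifngr1 was -0.40. From naive to demyelination the genotype effect on Jak2 changed by -1.40 (adjusted p = 0.0076), opposite to the members called. In naive, Jak2 was at 1.30 and Tyk2 at 0.28 without the low-Cx3cr1 libraries. Without the low-Cx3cr1 libraries the naive values were -0.45 (adjusted p = 0.00366) for Ifnar2 and 0.68 for Ifngr2, whereas the demyelination call of Ifngr2 (0.22, adjusted p = 0.821) and the differences between demyelination and naive for Ifnar2 (0.45, adjusted p = 0.102) and Irf1 (-0.44, adjusted p = 0.103) did not pass the test.

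Over a second list of 66 other interferon-stimulated genes, all tested, 12 were higher (18.2% of the list, against 14.7% of all genes) and 18 lower (27.3%, against 13.7%) in naive Cre+. In demyelination 3 were higher (4.55%, against 5.69%) and 1 lower (1.52%, against 3.48%), which is no larger a share than over all genes. The lower ones in naive included Phf11b (-1.40), Ube2l6, the conjugating enzyme of ISG15 (-1.03), and Tor3a (-1.05). Those higher in demyelination were the chemokine gene Ccl12 (1.17), the lysosomal thiol reductase gene Ifi30 (1.30) and the Fc receptor gene Fcgr1 (0.42), and Slfn8 was lower (-0.35). Effects differed between demyelination and naive for 12 upward and 6 downward, which are 18.2% and 9.09% of the list against 7.97% and 7.78% of all genes. The smallest p were those of Ube2l6 (1.28), Phf11b (1.52) and Ccl12 (1.42), and larger estimates were found among the others, such as Cxcl10 (1.75) and Mndal (-1.83). Without the low-Cx3cr1 libraries 8 were higher and 16 lower in naive, 7 upward and 2 downward in the difference, and 0 in demyelination, where Ccl12 was at 0.70 (adjusted p = 0.0612), Ifi30 at 0.44, Fcgr1 at 0.18 and Slfn8 at -0.17. From naive to demyelination 50 rose and 4 fell in Cre-, and 51 rose and 4 fell in Cre+. At the peak 1 was higher and 7 lower in Cre+.

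Among GTPase genes that respond mainly to interferon-gamma, 16 were listed and 14 tested. Of these, 4 were called higher in naive Cre+: Gbp4 (0.81), Gbp9 (0.61), Gbp7 (0.50) and Irgm2 (0.46), which is 28.6% of those tested against 14.7% of all genes. In demyelination 3 were called higher, namely Gbp8 (1.66), Gbp4 (0.92) and Gbp7 (0.47), or 21.4% against 5.69% of all genes. Without the low-Cx3cr1 libraries the 4 naive calls remained and the 3 in demyelination did not (Gbp8 0.78, Gbp4 0.42, Gbp7 0.22). Of 17 tested nucleic acid sensor and adaptor genes, 5 were higher (29.4%) and 1 lower (5.88%) in naive Cre+, and 1 was higher (5.88%) in demyelination, against the same shares of all genes as above. Without the low-Cx3cr1 libraries these were 3, 0 and 0. Of 9 negative regulators 2 were higher in naive Cre+ (22.2%) and 1 was lower in demyelination (11.1%, against 3.48%), and without those libraries 1 and 0.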

How the data were processed

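The deposited values are unnormalised read counts for each Ensembl gene in 24 libraries. Per the submitters' processing notes, the authors used Trimmomatic 0.36, STAR 2.5.2b, featureCounts of Subread 1.5.2, DESeq2 and the build GRCm38. For strand and multimapping settings the sources used here give nothing. Symbols and positions came from GENCODE M21, which held 49056 of 49315 identifiers.

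Filtering with filterByExpr on the 8 groups left 17579 genes. Group means were fitted to all 24 libraries in edgeR 4.0.16 (R 4.3.3) with TMM scaling, and 11 contrasts were tested by the robust quasi-likelihood F test (2-sided, 16 residual degrees of freedom, Benjamini-Hochberg adjustment over all genes tested, threshold 0.05). Genes past it are called. An SE is the size of the log2 difference divided by the square root of F. The p-values set each difference of group means against the spread between libraries, estimated per gene over all 8 groups. Totals of 8.87 to 44.53 M counts set the precision, and counts as low as those of Oas3 in naive limit it. The score used log2 CPM with a prior count of 2. The procedure was tested on simulated data.

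The members and all gene lists were chosen with earlier results of these data known. Lists besides the members were interferon ligands, receptors and kinases, transcription factors, sensors and adaptors, negative regulators, other interferon-stimulated genes, interferon-gamma GTPases and markers of 13 cell types. Of 9 receptor and kinase genes, 3 were higher and 2 lower in naive Cre+, and 1 higher and 1 lower in demyelination. Of 7 transcription factors, 1 was higher and 1 lower in naive. Named genes were the members, Dicer1, Cx3cr1, Ifnb1, Ifnar1, Ifnar2, Irf1, Irf3 and, in each comparison, up to 4 genes with the smallest p from each other list; 1 further gene of that rule is not reported here. Promoters were shown for the 6 members with the smallest p for the difference between naive and demyelination effects.

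Replicate numbers were checked by correlating residuals across 10572 genes. All 3 same-numbered pairs exceeded 0.1 for genotypes at the peak (0.23, 0.19 and 0.16) and for naive and demyelination in Cre+ (0.32, 0.27 and 0.26), and not in the other comparisons. The labels state no pairing. Alternatives were DESeq2 1.42.0, DESeq2 size factors, no and strict count filters, only the groups compared, a replicate block, a GC and length correction (mgcv 1.9.3), leaving out each library and, added after seeing the data, leaving out the 3 low-Cx3cr1 libraries and a block on the number shared by naive and demyelination Cre+.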

Additional observations from a re-analysis of the deposited data

Results flagged for a closer look

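The genotype effect (Cre+ minus Cre-, log2) differed between demyelination and naive by a direct test in 14 of the 36 interferon response genes, each time more positive in demyelination. The sizes, with SE and edgeR adjusted p, were 1.95 (0.31, 0.000275) for Ifit1, 1.93 (0.33, 0.000637) for Rsad2, 1.76 (0.30, 0.000547) for Ifit3b, 1.5 (0.47, 0.0327) for Oasl1, 1.36 (0.27, 0.00158) for Isg15, 1.29 (0.33, 0.0103) for Zbp1 and 1.28 (0.27, 0.00362) for Ifit3. Smaller ones were 1.14 (0.32, 0.0195) for Ifitm3, 0.93 (0.22, 0.00505) for Mx1, 0.86 (0.28, 0.0327) for Cmpk2, 0.80 (0.21, 0.0115) for Bst2, 0.74 (0.22, 0.0251) for Xaf1, 0.66 (0.22, 0.0435) for Usp18 and 0.57 (0.16, 0.0175) for Dhx58.

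Between remyelination with tamoxifen at the start and demyelination, the genotype effect differed by test in 5 members, each time more negative in remyelination. The sizes were -1.79 (0.48, 0.0402) for Oasl1, -1.09 (0.28, 0.0383) for Ifit2, -1.05 (0.28, 0.0407) for Ifit3, -0.99 (0.28, 0.0433) for Isg15 and -0.76 (0.20, 0.0361) for Herc6. The remyelination libraries were also the shallower ones. Both sets of differences share the demyelination libraries, so a library that is high or low there enters both.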

How the results depend on the processing

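No call of the report changed direction under any alternative. Numbers of members called are given here against those of the report. In naive, members higher (1) were 0 with DESeq2 size factors, with the replicate block, with the GC and length correction and without the low-Cx3cr1 libraries, and 2 with the stricter filter. In demyelination, members higher (12) were 2 with only the groups compared, 7 with the replicate block, 7 with the GC and length correction and 0 without the low-Cx3cr1 libraries. For the difference between demyelination and naive effects, members higher (14) were 9 with the replicate block and 5 without the low-Cx3cr1 libraries. For that between start and demyelination, members lower (5) were 11 with DESeq2's test, 11 with no filter, 1 with the GC and length correction and 0 without the low-Cx3cr1 libraries. From naive to demyelination in Cre+, members lower (0) were 1 with the GC and length correction and 1 without the low-Cx3cr1 libraries. From demyelination to start, members higher were 1 with the stricter filter in Cre- (0), and 0 with the GC and length correction and 0 without the low-Cx3cr1 libraries in Cre+ (1). Setting aside the low-Cx3cr1 libraries was chosen after seeing the data. The cause of these changes was not tested.

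Leaving out single libraries gave 0 to 1 members higher and 10 to 13 lower in naive, 1 to 15 higher in demyelination, 0 to 4 lower at the peak, 9 to 17 higher for demyelination minus naive effects and 0 to 11 lower for start minus demyelination effects. It gave 0 to 1 lower from naive to demyelination in Cre+, and from demyelination to start 0 to 1 higher in both genotypes and 32 to 35 lower in Cre+. The replicate block changed no count of members at the peak (3 lower) or from naive to demyelination in Cre+ (34). There same-numbered libraries varied together, though the labels state no pairing. With the number shared by naive and demyelination Cre+ as a block, also chosen after seeing the data, 12 of the 14 calls of the difference between these effects remained. In other comparisons same-numbered libraries did not all vary together.

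Over all tested genes, calls without the low-Cx3cr1 libraries were 81 against 1612 in demyelination, 1625 against 2769 for demyelination minus naive effects and 44 against 657 for start minus demyelination effects. The last were 1421 with DESeq2's test, 1062 with only the groups compared and 1026 with no filter, and peak minus start effects were 996 with DESeq2's test against 662. The share of calls that were higher in demyelination was 62.1%, and 42.9% with the GC and length correction, 72.8% with DESeq2 size factors, 71% with DESeq2's test, 73.5% with no filter and 92.6% without the low-Cx3cr1 libraries. For demyelination minus naive effects it was 50.6%, and 40.5%, 62.7%, 62% and 62.5% under the first 4 of these. For start minus demyelination effects it was 21.3%, and 34% with the GC and length correction. For peak minus start effects it was 76.3%, and 56.5% with no filter, 62.7% with only the groups compared and 63% without the low-Cx3cr1 libraries. From naive to demyelination it was 54.8% in Cre- and 50.4% in Cre+, and 42.1% and 37.8% with the GC and length correction, which set the median of all genes in Cre+ at -0.17. The median of all genes from demyelination to start in Cre+ was 0.12, and 0.21 with that correction. Depth limits Oas3 in naive most, and the remyelination states.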
